A study of Trichoplusia ni and Spodoptera exigua with 20 samples.

Results

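The 200 genes described here are *S*. *exigua* genes with a minimum mean level in control fat bodies and higher expression after consumption of either HDAC inhibitor. They were chosen on the authors' normalized values, written as log2(value + 1). A gene qualified when its mean value over the 3 control libraries was at least 5, when each of the 3 SFN and 3 TSA libraries lay above each control, and when the SFN mean and the TSA mean each lay at least 1 log2 unit above the control mean. The 100 genes with the highest control mean were left out. Of the 12380 genes in the normalized table, 7202 had a control mean of at least 5. Every treated library lay above every control in 719 of these (9.98%), and 475 met all conditions. The 200 with the largest smaller rise of the pair of inhibitors were kept, and 275 were not. Every control library reached a value of 5 in only 98 of the 200. In 79 the mean of control replicates 2 and 3 was under 5, so these genes passed the minimum only through control replicate 1.

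RNA was sequenced from fat bodies of wild-type *S*. *exigua* larvae, a generalist feeder. Each library pooled the fat bodies of 3 to 5 larvae collected on about Day 10, and the sex of the larvae was not given. Control larvae fed on an artificial diet on which the EtOH carrier had been evaporated, SFN larvae on the same diet treated with 70 mM SFN, and TSA larvae on diet treated with 330 µM TSA. All diets, those of the controls included, held antibiotics, and each group had 3 libraries. The replicates are separate pools of larvae from a commercial supplier.

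Histone deacetylases (HDACs) are enzymes that take acetyl marks off histone tails, and blocking them is known to shift the activity of many genes. SFN (sulforaphane) is an isothiocyanate released when cruciferous plants are chewed, and TSA (trichostatin A) is a pharmaceutical HDAC inhibitor that served as the positive control. The fat body is the main organ of intermediary metabolism and storage in insect larvae, in many ways comparable to the liver and adipose tissue of vertebrates. In a bulk sample of this tissue, a higher value can come from more cells of a type or from more RNA per cell. These cannot be told apart. The study reports that larvae on the SFN diet stayed smaller in the experiment used for sequencing. From other experiments it reports slower growth under SFN and later moth emergence under TSA. Pools of all groups were collected on about the same day, so any difference in developmental stage would coincide with treatment. Stage is not given in the labels, and its part in the rises was not tested. The genes carry locus tags only. No annotation of this genome was used here, so the products of the 200 genes are not named, no gene group could be formed, and the dissected tissue was not checked against fat body markers.

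The 9 libraries held between 6352561 and 35157218 counted reads, and SFN replicate 2 was the shallowest. None of the 200 genes had a count of 0 in any library, and the lowest count was 11, in a control. In SFN replicate 2 the lowest count among them was 124 and the median 537.5. One control library stood apart from the other controls in these genes, as described below, and results that rest on it are given with and without it.

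The 200 genes were mostly of low to moderate abundance in control larvae. The control mean of 74 of them lay between 5 and 10, that of 74 between 10 and 20, that of 35 between 20 and 50, that of 8 between 50 and 100, and that of 9 at 100 or above. In the order of abundance of all genes in the normalized table, their median place was 5035.5 in controls, 1722.5 under SFN and 1739.5 under TSA. Among the 1000 most abundant genes, 8 of them were found in controls, 47 under SFN and 43 under TSA. The median rise lay between 2.26 and 2.36 log2 units under SFN and between 2.30 and 2.95 under TSA over the 5 classes of control mean.

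Reads on the 200 genes made up 1.04% of the counted reads in control replicate 1, 0.173% in control replicate 2 and 0.277% in control replicate 3. Under SFN they made up 3.41%, 3.78% and 2.94% in replicates 1 to 3, and under TSA 3.12%, 2.35% and 4.21%. As a share of counted reads, every treated library lay above every control, with control replicate 1 between the other controls and the treated libraries. The choice of the genes largely fixes this order, and it is given as a description. The half-width of the 95% Wilson interval was at most 0.0148 percentage points, which covers counting error only. The shares are scaled by the library total alone. On that scale the median rise of the 200 genes was 2.92 log2 units under SFN and 2.71 under TSA. On the authors' normalized values it was smaller, at 2.29 and 2.38.

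By the rule itself, the rise over the control mean was at least 1.68 log2 units under each inhibitor. The median rise was 2.29 under SFN (range 1.68 to 5.69) and 2.38 under TSA (range 1.68 to 5.83). The same medians over the 7002 other genes with a control mean of at least 5 were -0.33 under SFN and -0.23 under TSA. These values chose the genes and were not tested. Both inhibitors were compared with the same controls, which by itself makes their rises alike. Both rises reached 2 log2 units in 133 of the 200 genes, 3 in 26 and 4 in 4. By the mirror image of the rule, 1257 genes, or 17.5% of the 7202, lay lower under both inhibitors, against the 475, or 6.6%, that lay higher. The mirror image did not leave out the 100 genes with the highest control mean, and with them 477 lay higher. The control minimum of 5 drops genes that rose from lower levels but keeps genes that fell to them, which partly sets this balance. With a control mean of at least 1, 1556 lay lower and 641 higher. The balance also depended on the scaling, since with library size only 888 genes lay lower and 888 higher. Without control replicate 1, 1976 lay lower and 786 higher.

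**Figure D1:**
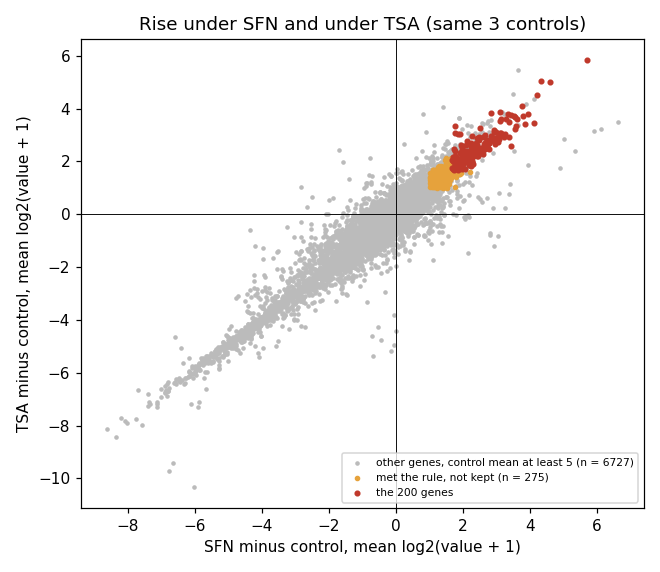
Mean log2(value + 1) under SFN minus control (x axis) and under TSA minus control (y axis) for genes with a control mean of at least 5; each point is a gene. The 200 genes (red) lie in the upper right at rises of at least 1.68 under both inhibitors, beyond the 275 genes that met the rule but were not kept (orange).

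The rule ended at a rank and not at a natural break. The lowest 3 genes kept were HF086_013886, HF086_005199 and HF086_016992, with smaller rises of 1.683, 1.683 and 1.680. The next 3, HF086_011809, HF086_003251 and HF086_003155, had smaller rises of 1.678, 1.677 and 1.670 and were left out. In HF086_005199 the normalized values were 108, 36.2 and 62.0 in the controls, 203, 159 and 258 under SFN, and 225, 157 and 265 under TSA.

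HF086_011264 had the largest rise. Its normalized value was 127, 1.24 and 3.11 in control replicates 1 to 3, 498, 385 and 833 under SFN, and 488, 663 and 670 under TSA. All treated libraries lay above the controls, as the rule required. Control replicate 1 lay far above the other controls but below every treated library. The mean was 43.7 ± 71.9 (SD, n = 3) in controls, 572 ± 233 (SD, n = 3) under SFN and 607 ± 103 (SD, n = 3) under TSA. In the order of abundance the gene stood at place 2287 in controls, 250 under SFN and 289 under TSA.

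The same arrangement of the controls recurred in the genes that followed. HF086_000225 had values of 74.1, 0.454 and 1.58 in controls, 140, 83.7 and 340 under SFN, and 126, 295 and 240 under TSA. HF086_012596 had 18.2, 0.454 and 1.49 in controls, 59.5, 72.5 and 124 under SFN, and 84.5, 139 and 214 under TSA. In HF086_012596 the lowest treated library lay 1.65 log2 units above the highest control, the widest gap of the 200 genes. HF086_007347 had values of 132, 1.11 and 4.89 in controls, 223, 133 and 338 under SFN, and 206, 300.03 and 320.01 under TSA. Its SFN replicate 2 and control replicate 1 differed by 0.0076 log2 units, the narrowest gap. Control replicates 2 and 3 of that gene lay far below both.

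HF086_013747 had values of 59.1, 5.86 and 3.15 in controls, 148, 232 and 181 under SFN, and 185, 123 and 198 under TSA. HF086_005938 had 134, 4.09 and 32.9 in controls, 312, 452 and 398 under SFN, and 361, 418 and 796 under TSA. In HF086_005938 control replicate 3 lay between the others, and no control reached the treated libraries, as the rule required.

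The genes with the highest control means came next, each of which was among the 1000 most abundant genes of control larvae. HF086_003348 had values of 1821, 429 and 556 in controls, 3224, 2903 and 3137 under SFN, and 4719, 2647 and 4400.2 under TSA. In the order of abundance it stood at place 229 in controls and at place 23 under both inhibitors. HF086_013446 had 1528, 147 and 202 in controls, 2332, 2443 and 2013 under SFN, and 2609, 3896 and 2372 under TSA. Its mean was 626 ± 782 (SD, n = 3) in controls, 2263 ± 224 (SD, n = 3) under SFN and 2959 ± 820.3 (SD, n = 3) under TSA. The SD of its controls exceeded their mean, and control replicate 1 lay between the other controls and the treated libraries.

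HF086_015531 had values of 714, 141 and 312 in controls, 1464, 1047 and 1591 under SFN, and 2005, 1748 and 2081 under TSA. HF086_012913 had 359, 63.1 and 113 in controls, 682, 652 and 645 under SFN, and 1115, 915 and 1184 under TSA. HF086_008741 had 369, 54.1 and 93.1 in controls, 893, 1502 and 915 under SFN, and 1976, 1891 and 1557 under TSA. In these 3 genes every TSA library lay above every SFN library, as it did in 7.04% of all genes with a mean CPM over 10. Every SFN library lay above every control, as the rule required.

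**Figure D2:**
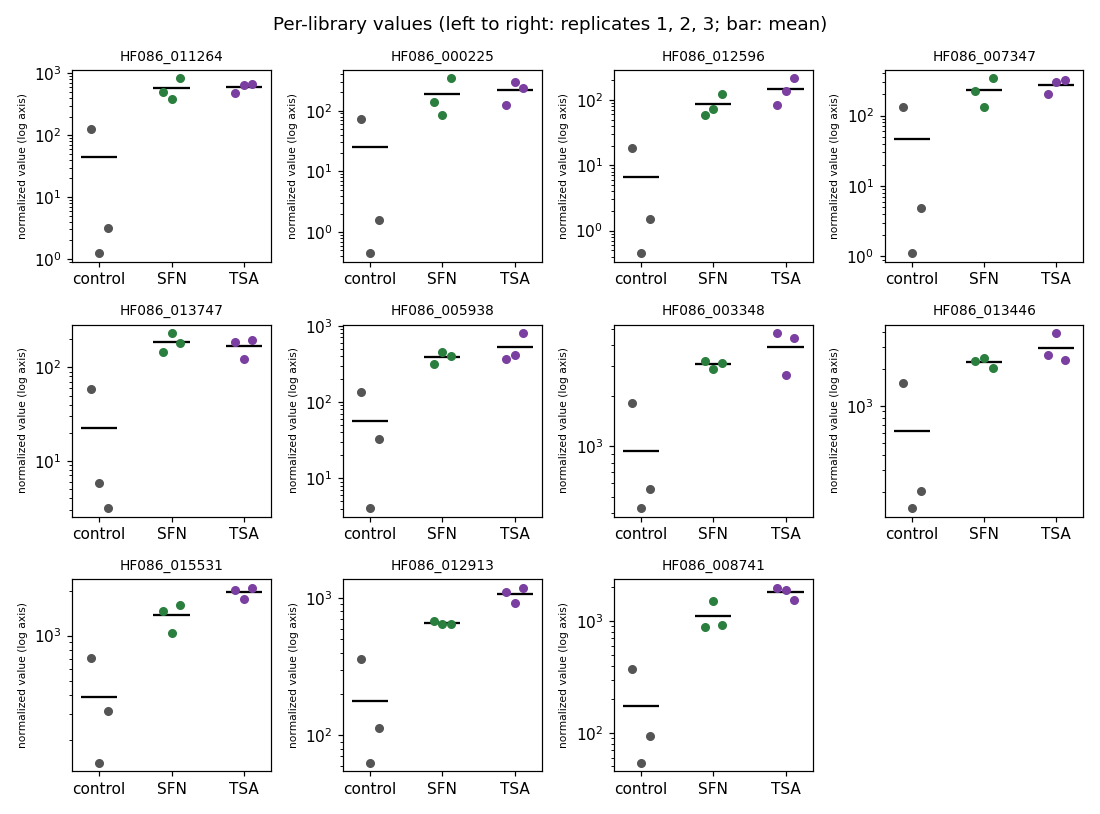
Normalized value (log axis) in each library for the 6 genes with the largest smaller rise and the 5 with the highest control mean; points are replicates 1, 2 and 3 from left to right and bars are group means. In HF086_011264 the controls were at 127, 1.24 and 3.11 and the treated libraries between 385 and 833, and in each panel control replicate 1 is the highest control.

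Control replicate 1 was the highest of the controls in 194 of the 200 genes (97.0%), against 39.1% of the other genes with a control mean of at least 5. The rule asked that treated libraries lie above every control, but it did not ask which control was highest. It did favour genes whose controls were spread, since a control mean of at least 5 together with a large rise on the log scale is easiest to reach when 1 control is high. The difference of control replicate 1 from the mean of control replicates 2 and 3 had a median of 1.84 log2 units over the 200 genes (range -1.07 to 5.40). It exceeded 1 in 180 genes and 2 in 82. Its median was -0.09 over the other genes with a control mean of at least 5. Control replicates 2 and 3 lay within 1 log2 unit of each other in 181 of the 200 genes.

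**Figure D3:**
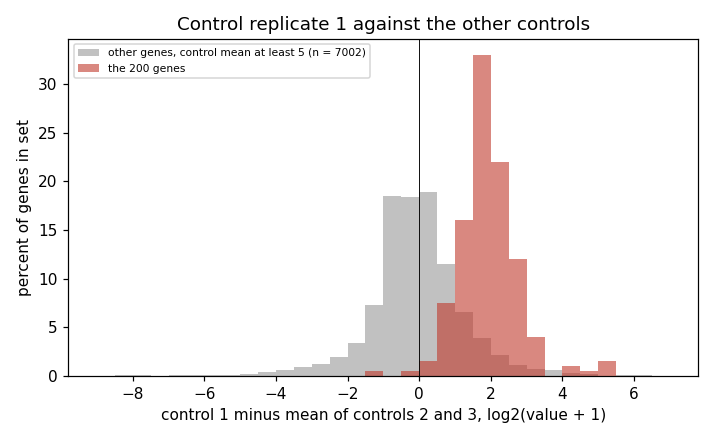
Control replicate 1 minus the mean of control replicates 2 and 3, in log2(value + 1), as a percent of the genes in each set. The 200 genes (red) have a median of 1.84 and the 7002 other genes with a control mean of at least 5 (grey) a median of -0.09.

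Control replicate 1 nevertheless lay below all treated libraries in every one of the 200 genes, as the rule required. Of the distance between control replicates 2 and 3 and the mean of the treated libraries, control replicate 1 had covered a median of 62.6%, and at least 50% in 161 genes. Measured from control replicate 1 alone, the median rise was 1.13 under SFN and 1.17 under TSA. Both rises from it reached 1 log2 unit in 110 genes, and all 6 treated libraries lay more than 1 log2 unit above it in 31. Measured without control replicate 1, the median rises were 2.95 and 2.97. All 200 genes then lay at least 1 log2 unit higher under both inhibitors, which the choice of the genes largely fixed. Of them, 79 no longer met the rule because the mean of the remaining controls was under 5. The 275 genes that met the rule but were not kept showed the same order, with control replicate 1 highest in 266 and a median difference of 0.97. In the 1257 genes that lay lower under both inhibitors, control replicate 1 was the lowest control in 1058. It was the lowest in 43.6% of all genes with a control mean of at least 5. In the 1257 genes it had covered a median of 20.9% of the distance to the treated libraries, less than in the 200. What distinguished the larvae or the preparation of this library is not given in the labels, and its part in the rises was not tested.

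**Figure D4:**
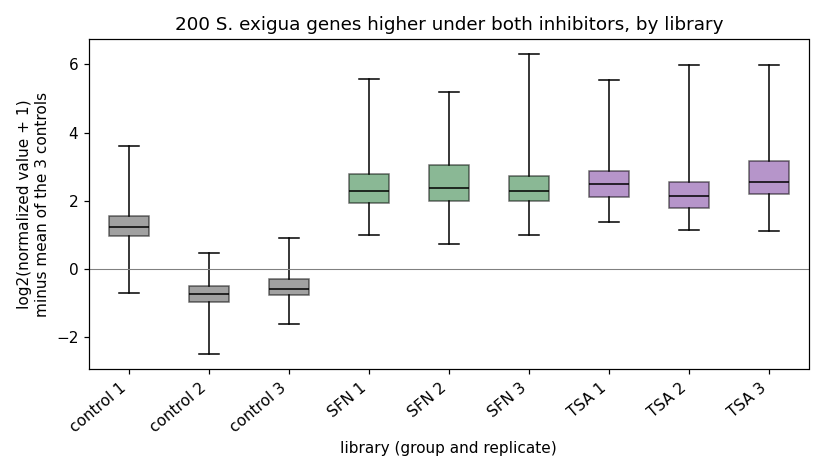
log2(value + 1) of the 200 genes in each library minus the mean of the 3 controls; boxes span the middle 50% of genes with the median as a line, and whiskers reach the lowest and highest gene. Medians were 1.23 in control replicate 1, -0.74 and -0.58 in the other controls, and between 2.13 and 2.56 in the treated libraries.

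Only 6 of the 200 genes had another control at the top. HF086_005108 had the narrowest range of controls, with values of 9.13, 9.33 and 11.4, against 97.4, 24.2 and 53.3 under SFN and 54.3, 38.2 and 56.9 under TSA. Its rise was 2.23 under SFN and 2.2 under TSA. HF086_018332 had 13.2, 9.21 and 14.8 in controls, 43.0, 34.5 and 51.2 under SFN, and 62.3, 108 and 54.2 under TSA. HF086_001241 had 12.9, 30.6 and 25.9 in controls, 105, 152 and 60.8 under SFN, and 59.1, 110 and 105 under TSA, and was 1 of the 2 genes in which control replicate 1 lay below the mean of the other controls. The other genes of this kind were HF086_006429, HF086_018333 and HF086_008130. HF086_001241 and HF086_018333 are named because they belong to this group, after their values were seen.

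HF086_001406 had control replicate 1 on top but a narrow range of controls. Its values were 9.06, 6.07 and 5.49 in controls, 27.9, 25.1 and 29.5 under SFN, and 28.7, 27.4 and 33.8 under TSA. Its mean was 6.87 ± 1.91 (SD, n = 3) in controls, 27.5 ± 2.24 (SD, n = 3) under SFN and 29.96 ± 3.37 (SD, n = 3) under TSA. The widest ranges of controls belonged to HF086_007347, HF086_011264 and HF086_000225, with 5.98, 5.83 and 5.69 log2 units.

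In the 200 genes the treated libraries were closer to each other than the controls were. The rule favoured genes with spread controls, so this is given as a description. The SD of log2(value + 1) had a median of 1.11 over the 200 genes among controls, 0.29 among SFN libraries and 0.36 among TSA libraries. Over the other genes with a control mean of at least 5, the medians were 0.54, 0.41 and 0.30. The range within a group exceeded 1 log2 unit in 191 genes among controls, 49 under SFN and 42 under TSA. Some order was present among the treated libraries too. TSA replicate 2 was the lowest TSA library in 144 of the 200 genes, against 30.1% of all genes with a control mean of at least 5. TSA replicate 3 was the highest in 135 of the 200, against 31.0%. SFN replicate 2, the shallowest library, was the lowest SFN library in 74 of the 200 genes, against 46.7%. It was the highest in 92 of the 200, against 35.8%. As a share, it was thus lowest less often and highest more often in the 200 genes.

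The comparison with the controls used the quasi-likelihood test of edgeR, adjusted after Benjamini and Hochberg, and is given only as a description, since the rule used it. All 200 genes had a mean CPM over 10 and were tested among 5497. At an adjusted p under 0.05, 0 of the 200 were called higher under SFN and 0 under TSA, and 0% of all tested genes were called in each comparison. The threshold was narrowly missed, since the lowest adjusted p of this test over all genes was 0.0535 under SFN and 0.0556 under TSA. The study, which also used edgeR, reports *S*. *exigua* genes altered by either inhibitor at an FDR below 0.05. At an unadjusted p under 0.05, 194 of the 200 were higher under SFN, where 16.8% of all tested genes were, and 188 under TSA, where 14.6% were. The likelihood ratio test in edgeR called 188 under SFN (10.4% of all tested genes) and 179 under TSA (8.82%). The Wald test of DESeq2 called 199 (15.2%) and 196 (13.8%). Without the replicate number in the model, the quasi-likelihood test called 121 under SFN (6.77%) and 84 under TSA (4.78%). Without control replicate 1, the quasi-likelihood test called 195 under SFN (18.0% of all tested genes) and 192 under TSA (17.5%), and without TSA replicate 1 it called 8 (0.579%) and 2 (0.0543%).

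The rule did not rank the genes on the difference between the inhibitors, but it used both means, which favours genes with like rises. The values between the inhibitors are therefore given as a description, and nothing is read from their being smaller than in other genes. Between SFN and TSA, the same test in edgeR called 0 of the 200 genes and 0% of all tested genes. At an unadjusted p under 0.05 it found 0 of the 200 genes and 2.33% of all tested genes. The likelihood ratio test and the Wald test of DESeq2 also called 0 of the 200, where they called 0.309% and 0.855% of all tested genes. The inhibitors were given at different concentrations, so that this is a comparison of a single dose of each.

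The fitted log2 fold change of SFN against TSA lay between -1.34 and 1.05 over the 200 genes, with a median of 0.15 beside 0.04 over all tested genes. It was within 1 log2 unit in 98.0% of the 200 genes and 88.8% of all tested genes. The standard error had a median of 0.59 over the 200 genes and ranged from 0.29 to 1.58. The sign of the median was not stable. On the normalized values the mean of SFN minus TSA had a median of -0.01 over the 200 genes, and the fitted median was -0.36 without SFN replicate 2 and 0.50 without TSA replicate 3. The rise was larger under TSA in 107 genes and larger under SFN in 93, and the rises lay within 0.5 log2 units of each other in 182.

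**Figure D5:**
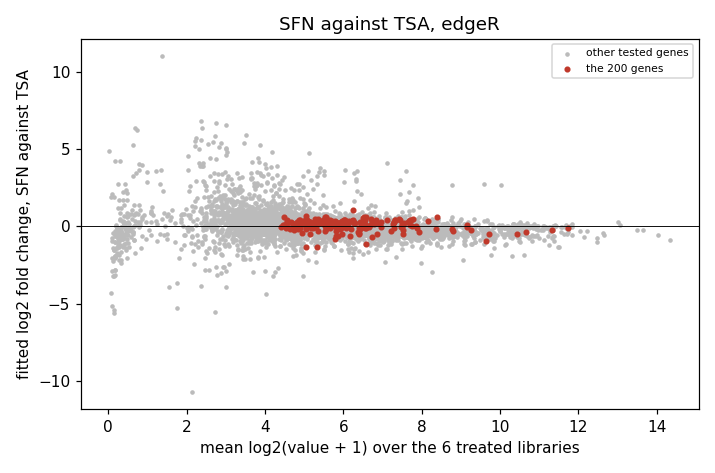
Fitted log2 fold change of SFN against TSA (y axis) against the mean log2(value + 1) over the 6 treated libraries (x axis); each point is a gene tested in edgeR. The 200 genes (red) lie between -1.34 and 1.05, and none was called.

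Every TSA library lay above every SFN library in 14 of the 200 genes, and the opposite held in 0. Among all genes with a mean CPM over 10 these shares were 7.04% and 3.0%. The lowest fitted value was that of HF086_000820, in which the normalized values were 8.62, 3.92 and 5.86 in controls, 12.8, 44.2 and 18.8 under SFN, and 57.8, 65.9 and 82.4 under TSA. Its log2 fold change of SFN against TSA was -1.34 (standard error 0.60, adjusted p = 1.0 by edgeR's quasi-likelihood test), and -2.21 without SFN replicate 2. HF086_003724 had 42.2, 11.4 and 8.84 in controls, 59.7, 45.7 and 87.01 under SFN, and 109, 98.2 and 271 under TSA, with a log2 fold change of -1.14 (standard error 0.65). Its TSA libraries all lay above its SFN libraries, but TSA replicate 3 alone was far above them. In HF086_008130 and HF086_000236 the log2 fold changes were -1.34 and -0.94, and their SFN and TSA libraries overlapped.

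At the other end, HF086_006429 had values of 13.2, 3.10 and 13.9 in controls, 163, 122 and 52.8 under SFN, and 132, 54.6 and 23.9 under TSA. Its log2 fold change of SFN against TSA was 1.05 (standard error 0.73, adjusted p = 1.0 by the same edgeR test), and its SFN and TSA libraries overlapped widely. HF086_005798, HF086_017336 and HF086_016640 followed with 0.66, 0.62 and 0.62. In HF086_016640 the SFN values were 260.5, 659 and 302 and the TSA values 331, 209.8 and 383, with SFN replicate 2 far above the other treated libraries.

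Some of the 200 genes had neighbouring locus tags. In 12 of them (6.0%) the tag with the next lower or next higher number belonged to another of the 200 genes, against 2.71% of the other genes with a control mean of at least 5. They formed 6 pairs and no longer run. HF086_002083 had values of 10.6, 3.72 and 2.34 in controls, 22.96, 22.3 and 19.4 under SFN, and 27.7, 20.8 and 32.6 under TSA. Its neighbour HF086_002084 had 31.4, 8.47 and 4.16 in controls, 85.2, 118 and 81.1 under SFN, and 105, 57.5 and 107 under TSA. Both were lowest in control replicate 3, and their rises under SFN were 1.99 and 3.02 log2 units.

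In the pair HF086_002833 and HF086_002834 the rises were 1.79 and 2.47 under SFN and 1.91 and 2.41 under TSA. In the pair HF086_003169 and HF086_003170 they were 2.78 and 2.52 under SFN and 2.48 and 2.50 under TSA. HF086_003169 had values of 72.5, 58.7 and 32.4 under SFN and 65.2, 39.3 and 27.98 under TSA, and HF086_003170 had 47.4, 43.7 and 27.2 under SFN and 53.4, 28.1 and 35.8 under TSA. Coordinates of these genes were not used here, the counting is not stated to use strand, and reads of overlapping neighbours could not be told apart.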

How the data were processed

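Fat body RNA of *S*. *exigua* larvae was analysed in 3 control, 3 SFN and 3 TSA libraries, grouped by the sample labels. The *T*. *ni* libraries were not used here, as no table pairs the genes of both species. Per the methods of the study, reads were trimmed with Trimmomatic (v0.39), aligned to the TB_SE_WUR_2020 genome with HISAT2 (v2.2.1) and counted with featureCounts, and the authors deposited the raw counts without normalization. The authors also deposited a normalized signal per gene, made by removing low-count genes and dividing the counts by 1 factor per library with TMM scaling. Multiplied back, 100% of these values matched the raw counts (tolerance 0.01).

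The members and the lists were chosen with earlier results of these data known. Levels and rises used the normalized values as log2(value + 1). Tests used the raw counts in edgeR 4.0.16 under R 4.3.3 (mean CPM over 10, TMM, treatment plus replicate number as a block, quasi-likelihood test, Benjamini-Hochberg adjustment over all 5497 genes, threshold 0.05). The block is a reading of the pairing named in the methods of the study and is in doubt. P-values measure the spread between pools. Depth ranged from 6352561 to 35157218 counts, and counting error was smaller than the spread between libraries. Genes named are the 6 with the largest smaller rise, the 5 with the highest control mean, the 4 at each end of SFN against TSA, the 3 at each end of the range of controls, the 3 at each side of the limit, and 3 pairs of neighbouring tags taken in the order of their numbers. The model was tested on simulated data. Alternatives were other scalings, filters, pseudocounts and control minimums, no block, the likelihood ratio test, DESeq2 1.42.0, a threshold of 0.01, only the libraries compared, and leaving out each library. Figures were drawn with matplotlib 3.10.9.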

Additional observations from a re-analysis of the deposited data

How the results depend on the processing

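The count of genes meeting the rule was 475 and became 888 with library size only, where the median of all genes with a control mean of at least 5 moved from -0.29 to 0.35 under SFN and from -0.20 to 0.15 under TSA. Of the 200 genes, 184 still met the rule with library size only and at least 198 with DESeq2's size factors, upper-quartile factors or another pseudocount. With a control mean of at least 10, 126 did. Leaving out 1 library in turn, the number of genes meeting the rule ranged from 424 to 786 and the number of the 200 still meeting it from 121 to 200, with both the highest count and the lowest number without control replicate 1. The median rise ranged from 1.96 to 2.95 under SFN and from 2.07 to 2.97 under TSA.

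Against the controls, with 0 of the 200 genes called at first under either inhibitor, 66 were called under SFN and 74 under TSA when genes with a mean CPM over 1 were tested (2.0% and 2.06% of all tested genes), 82 and 91 with all genes counted at least once (1.47% and 1.23%), 57 and 70 with the genes of the normalized table (1.42% and 1.48%), and 188 and 179 by the likelihood ratio test (10.4% and 8.82%). DESeq2's Wald test called 199 and 196 (15.2% and 13.8%), and library size only called 159 under SFN (14.8%) and 0 under TSA (0%). Without control replicate 1, 195 were called under SFN and 192 under TSA (18.0% and 17.5%). Without TSA replicate 1, 8 and 2 were called (0.579% and 0.0543%). With any other single library left out, 0 were called under either inhibitor. Between SFN and TSA, 0 of the 200 were called under any alternative, while over all genes the likelihood ratio test called 17 and DESeq2's Wald test 47. The cause of these differences was not tested. Without 1 library, the fitted fold change between the inhibitors ranged from -2.01 to 0.047 for HF086_008130, from -0.047 to 1.08 for HF086_017336 and from -0.40 to 1.34 for HF086_016640, and the median of the 200 from -0.36 to 0.50. Without SFN replicate 2 it was -2.21 for HF086_000820, -0.51 for HF086_000236, 0.33 for HF086_006429 and 0.17 for HF086_005798, and without TSA replicate 3 it was -0.44 for HF086_003724.

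Without the replicate block, 121 of the 200 genes were called under SFN (6.77% of all tested genes, higher) and 84 under TSA (4.78%), and 0 between SFN and TSA. Same-numbered libraries deviated from their group means together in only 1 of 9 pairs at a correlation over 0.1 (range -0.19 to 0.47). That pair was SFN replicate 1 and TSA replicate 1. Some differently numbered libraries also passed 0.1. They were SFN replicate 2 with TSA replicate 3 (0.36), SFN replicate 3 with TSA replicate 2 (0.22) and control replicate 1 with TSA replicate 3 (0.18). The other differently numbered pairs lay lower, down to -0.42 for SFN replicate 1 with TSA replicate 3. Whether the numbers paired the libraries was not tested, nor was the cause of the calls lost under the block. Counts of the 200 genes were lowest in control replicate 2, with a median of 134 beside 537.5 in SFN replicate 2.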
